A study of Mus musculus with 10 samples.

Results

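The regions described here are dense clusters of distal open chromatin in F123 mouse embryonic stem cells (mESCs). They were chosen by the positions of ATAC-seq peaks alone. Peaks of chromosomes 1 to 19 that lay over 5 kb from every transcript start of GENCODE were taken as distal and joined where the gap between neighbours was at most 2000 bp. Joined stretches of 5 or more peaks were kept as clusters. Of 81728 stretches, 367 (0.449%) were such clusters. They held 1993 (1.90%) of the 105087 distal peaks. The 64641 stretches of a single distal peak served for comparison.

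ATAC-seq uses a transposase that cuts accessible DNA, and its peaks mark promoters, enhancers and other sites where proteins displace nucleosomes. Trimethylation of histone H3 at lysine 4 (H3K4me3) is laid down mainly at active or poised promoters, and is weaker or absent at most enhancers. Enhancers that lie close together are known near genes that hold the stem cell state, among them those of the transcription factors Sox2 and Klf4.

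F123 cells are a hybrid line from a cross of Mus musculus castaneus and S129/SvJae mice. Cultures contained LIF and grew on CF1 fibroblast feeders, with the last passage on gelatin alone, and no sample had another genotype or treatment. ATAC-seq used 100000 cells in each of 2 replicates, and H3K4me3 ChIP-seq used 2000000 cross-linked cells in each of 2 replicates. The PLAC-seq and input samples of the series were not analysed here.

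Each assay is given as a single list that pools its replicates, so no value below has a spread between replicates. The intervals are 95% intervals of counting error, they treat peaks as independent, and a difference is said to be higher or lower where its interval leaves out 0. Read depth is unknown for both lists. The ATAC-seq list held 179109 peaks, of which 172958 were on the autosomes and 60.8% of those were distal. The H3K4me3 list held 33487 peaks. All 8 markers of embryonic stem cells (Pou5f1, Sox2, Nanog, Esrrb, Zfp42, Dppa5a, Tdgf1 and Utf1) had an H3K4me3 peak within 1 kb of a start. Of 8 fibroblast markers, 5 had such a peak and Col3a1, Postn and Lum had none. Over all autosomal coding genes the share was 70.0%. What feeder cells added to the peak lists was not tested.

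The sequences below are accessible sites inside clusters near genes named below. They were picked for their motifs and are not typical, as an octamer stood in only 2.36% of all cluster windows. No window is shown for the Mycn and Spry4 clusters. Each is a window of 200 bp on the midpoint of an ATAC-seq peak, from the plus strand of GRCm38 (mm10). Capitals mark a match to a searched motif on either strand. Of the 200 bp windows in each cluster, the one with the most different motifs was taken. The Sox2 window carried the motif of ESRRB, an orphan nuclear receptor of the naive state. A KLF motif stood in the Klf5 window. The Klf4 window held an AP-1 motif. In the Smad3 window lay a TFAP2 motif and TGAATCA, which counts as AP-1 only because the search string TGANTCA takes any base at N. In the Tet2 window an octamer, the site of POU factors such as OCT4, lay before an AP-1 motif. The Etl4 window had 2 octamers. It came from 1 of 3 Etl4 clusters, and the windows of the others, not shown, each had AP-1 alone. Of the windows shown, those of Sox2 and Smad3 lay in ATAC-seq peaks that overlapped an H3K4me3 peak, and the rest did not.
Sox2 cluster, chr3:34757838-34758037: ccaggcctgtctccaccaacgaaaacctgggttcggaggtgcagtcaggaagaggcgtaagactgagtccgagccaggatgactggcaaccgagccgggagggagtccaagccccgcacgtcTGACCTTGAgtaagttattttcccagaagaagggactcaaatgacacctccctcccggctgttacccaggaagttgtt
Klf4 cluster, chr4:55474507-55474706: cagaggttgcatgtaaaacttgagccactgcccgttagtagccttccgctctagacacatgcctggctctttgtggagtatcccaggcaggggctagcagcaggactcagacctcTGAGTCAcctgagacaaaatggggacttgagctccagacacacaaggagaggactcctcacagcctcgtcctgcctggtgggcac
Klf5 cluster, chr14:99275120-99275319: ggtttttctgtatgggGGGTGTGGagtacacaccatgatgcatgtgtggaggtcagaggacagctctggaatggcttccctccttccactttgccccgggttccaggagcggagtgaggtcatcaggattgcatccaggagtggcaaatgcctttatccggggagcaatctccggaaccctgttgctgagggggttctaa
Tet2 cluster, chr3:133513565-133513764: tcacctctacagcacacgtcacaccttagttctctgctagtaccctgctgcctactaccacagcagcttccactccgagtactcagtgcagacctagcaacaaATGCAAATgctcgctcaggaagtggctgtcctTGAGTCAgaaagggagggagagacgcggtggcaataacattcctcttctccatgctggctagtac
Smad3 cluster, chr9:63879827-63880026: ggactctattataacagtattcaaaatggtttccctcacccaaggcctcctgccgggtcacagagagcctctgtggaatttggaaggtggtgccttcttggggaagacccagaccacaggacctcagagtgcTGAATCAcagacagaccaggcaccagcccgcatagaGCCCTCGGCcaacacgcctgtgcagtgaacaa
Etl4 cluster, chr2:20592217-20592416: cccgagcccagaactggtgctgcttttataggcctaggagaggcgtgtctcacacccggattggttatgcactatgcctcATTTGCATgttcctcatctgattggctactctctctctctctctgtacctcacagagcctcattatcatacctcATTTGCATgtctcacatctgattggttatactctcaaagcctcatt

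The joining rule bounds the gaps, so the lengths given here describe the clusters and test nothing. Their span ran from 2092 to 12769 bp with a median of 4576 bp (quartiles 3607.5 and 5767.5 bp), and together they covered 1768.759 kb. Peaks filled 32.1% of that length. The median gap between neighbouring peaks was 599 bp, and 722 of the 1626 gaps were under 500 bp. Neighbouring peak midpoints were a median of 905 bp apart. Cluster peaks had a median width of 227 bp (interval 220 to 235) against 240 bp (238 to 241) for single distal peaks. Most clusters sat at the lower limit of size, with 272 of exactly 5 peaks, 56 of 6 and 26 of 7. Another 7 clusters had 8 peaks, 4 had 9, and the largest had 11 and 12. Just outside the limit stood 884 stretches of 4 peaks, with a median span of 3306 bp against 4234.5 bp for those of 5 peaks. Every autosome held clusters, from 7 on chromosome 19 and 9 on chromosome 16 to 31 on chromosome 6 and 32 on chromosome 8. Relative to the distal peaks of each chromosome, the number ran from 2.28 per 1000 on chromosome 4 to 5.39 per 1000 on chromosome 8.

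**Figure D1:**
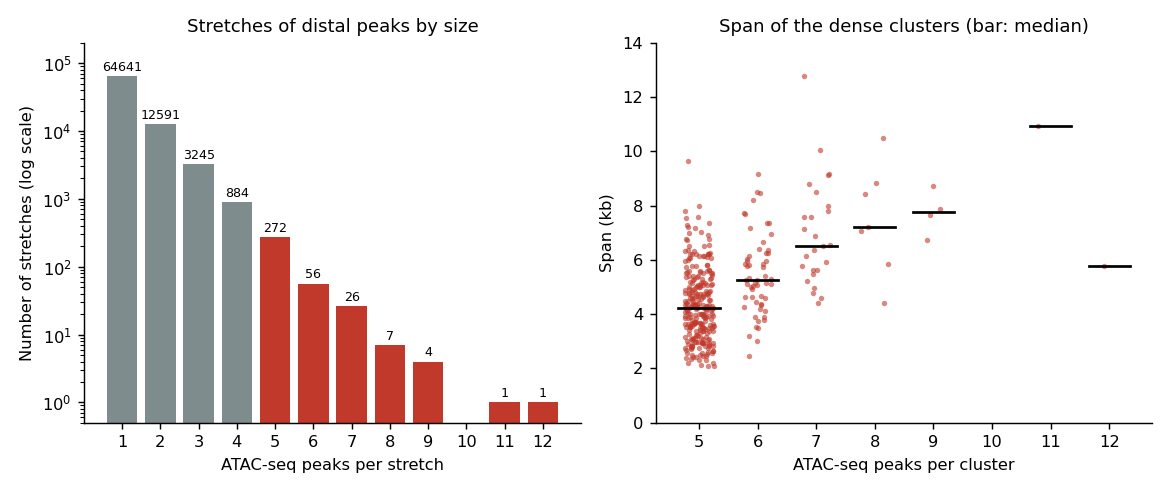
Left, number of stretches of distal ATAC-seq peaks (log scale) against the number of peaks in a stretch, with dense clusters in red. Right, span in kb of each of the 367 clusters against its number of peaks, each point a cluster and each bar a median. Numbers fall from 64641 single peaks to 272 stretches of 5, and the median span of clusters of 5 is 4234.5 bp.

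Some clusters lay in repeated DNA, the largest among them. In 33 of the 367 clusters, over 50% of the 31-base words of the span occurred more than once in the genome. These 33 clusters held 200 of the 1993 cluster peaks, and 9 of them were among the 39 clusters of 7 or more peaks. None of the 33 held an H3K4me3 peak, which allows a share of up to 9.09%. Over all clusters the median of repeated words was 6.39%. By the same measure, taken as the mean over peak windows, 36 clusters (9.81%, interval 7.17 to 13.3) and 20.8% of single distal peaks (20.5 to 21.1) were rich in repeats, a difference of -11.0 points (-13.7 to -7.53). The effect of read placement on these peaks was not tested.

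The largest cluster was inside Sik3, which encodes a salt-inducible kinase. Its 12 peaks, 85 to 465 bp wide, filled 39.9% of 5766 bp on chr9:46132686-46138451, and repeated words made up 91.5% of it. A cluster of 11 peaks and a cluster of 9 lay on chromosome 8 near the predicted gene Gm21119, with 95.4% and 93.3% of repeated words. The 9-peak cluster whose nearest coding gene was Lama2, the laminin alpha 2 chain, was 202307 bp from its start and held 99.7% of repeated words. No H3K4me3 peak lay in any of these 4 clusters.

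The remaining large clusters had fewer repeated words, from 3.25% near Smad3 to 28.2% near Zfp213. Smad3, a transducer of Nodal and TGF-beta signals, was the nearest coding gene of a cluster of 9 peaks on chr9:63875290-63884025, 121663 bp from its start and between Smad3 and Smad6. In that cluster 4 of 9 peaks overlapped H3K4me3. Rbfox3, a neuronal splicing factor, hosted 9 peaks over 7856 bp, of which 4 overlapped H3K4me3. Emb, an adhesion glycoprotein, hosted 8 peaks spread over 8844 bp, the loosest of the 10 largest clusters with 15.7% of its span in peaks, and it held no H3K4me3 peak. Near Zfp213, a zinc finger gene, 5 of 8 peaks overlapped H3K4me3 across 10486 bp. Near Fblim1, a filamin-binding adhesion protein, 5 of 8 peaks overlapped H3K4me3. A cluster of 8 peaks 17242 bp from the start of the histone variant gene H2afz had H3K4me3 at 1 of its peaks.

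**Figure D2:**
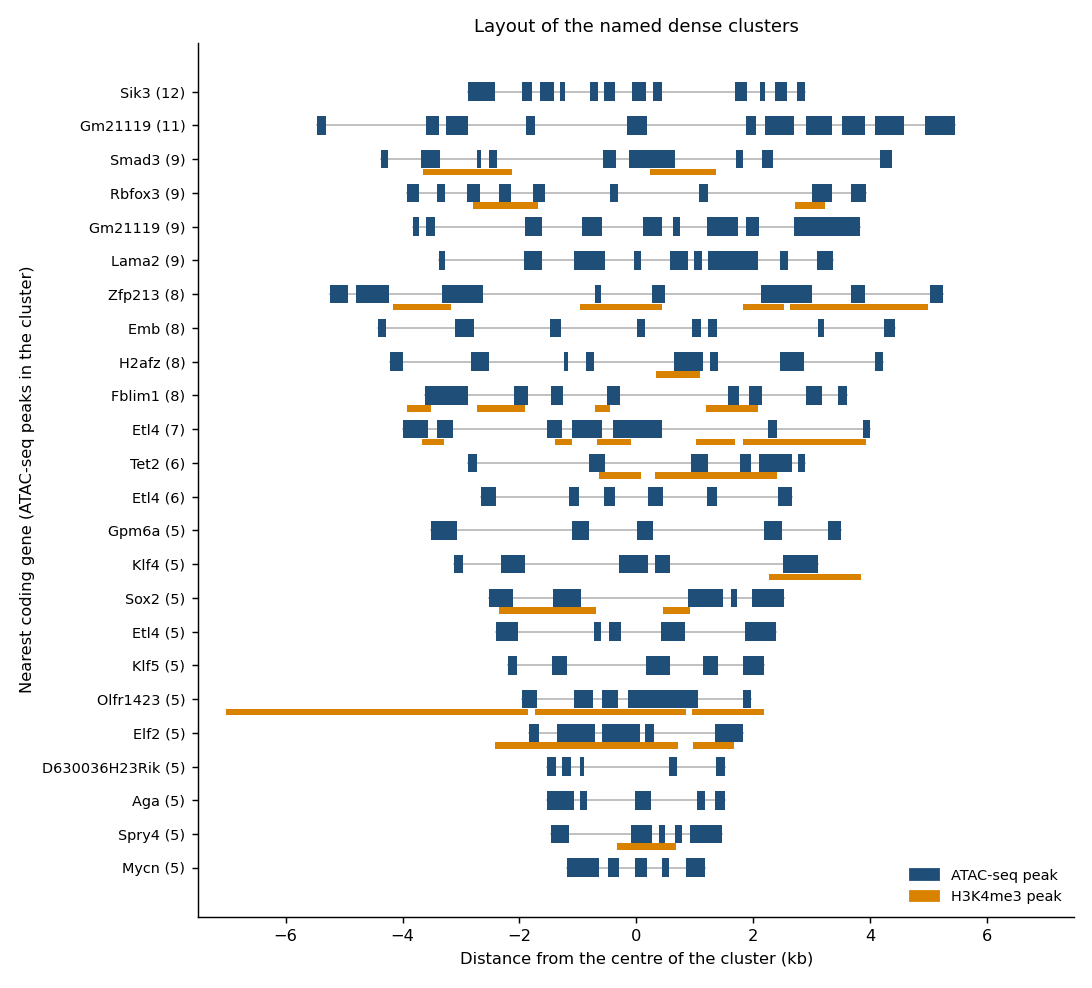
Layout of 24 named clusters, each line a cluster with its nearest coding gene and number of ATAC-seq peaks, against distance in kb from the centre of the cluster. Dark blocks are ATAC-seq peaks and orange blocks below them are H3K4me3 peaks. The Sik3 cluster has 12 peaks and no H3K4me3, while the Etl4 cluster of 7 peaks has 5 H3K4me3 peaks along its length.

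Each list held at most 4 genes that were the nearest coding gene of a cluster. Of all 20807 autosomal coding genes, 1.65% were the nearest coding gene of a cluster. In the list of pluripotency factors these were 4 of 29 genes (Klf4, Klf5, Mycn and Sox2), or 13.8%. They were 2 of 33 in the signalling list (Smad3 and Spry4), or 6.06%. Among the chromatin and RNA regulators the count was 1 of 13 (Tet2), or 7.69%. Of 5 genes that the study took from earlier enhancer deletions, 1 was nearest to a cluster (Etl4). None of 18 lineage regulators was nearest to a cluster, which allows a share of up to 16.7%. Every measured gene of these 5 lists had H3K4me3 within 1 kb of a start, against 70.0% of all autosomal coding genes. By the first coding start on either side of a cluster, 6 pluripotency factors were beside one, adding Pou5f1 and Sall4. The signalling genes were then 4, adding Smad6 and Stat3, and the counts of the remaining lists did not change. The share of all coding genes was not counted that way. A cluster of 7 peaks without H3K4me3 ended 15314 bp from the start of Pou5f1, with H2-Q10 as its nearest coding gene.

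Sox2, with Pou5f1 at the core of the network, was 108714 bp from a cluster of 5 peaks on chr3:34756590-34761649. The peaks were 425, 475, 605, 106 and 548 bp wide, and the first 3 overlapped H3K4me3. The stronger of its 2 H3K4me3 peaks had a fold enrichment of 10.9 over 1672 bp, above 54.2% of autosomal H3K4me3 peaks. At the start of Sox2 itself the fold enrichment was 42.9. Klf4, a reprogramming factor, was 54120 bp from 5 peaks on chr4:55474535-55480765. They were 144, 417, 496, 254 and 605 bp wide, and the last overlapped an H3K4me3 peak of 8.99-fold enrichment. Both clusters had H3K4me3 that was weaker than at the gene's start, which for Klf4 had 26.5-fold enrichment.

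Klf5, a related factor, had 5 peaks between 155 and 406 bp wide at 21360 bp, and no H3K4me3 among them. Mycn, a MYC family factor, had the most compact of these clusters, with 59.4% of its 2364 bp in peaks, 113151 bp from the start and again without H3K4me3. Tet2, an enzyme that oxidises 5-methylcytosine, carried 6 peaks inside the gene on chr3:133513582-133519350, and 4 of them overlapped H3K4me3 with a fold enrichment of up to 8.12. Spry4, an inhibitor of FGF signalling, was 59025 bp from 5 peaks, of which 3 overlapped an H3K4me3 peak of 3.85-fold enrichment. H3K4me3 at the starts of these 4 genes ranged from 37.9-fold at Tet2 to 51.1-fold at Spry4.

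Etl4 was the only gene of these lists with several clusters, and they differed in H3K4me3. All 3 lay inside the gene, within chr2:20592190-20694234. A cluster of 7 peaks on chr2:20665473-20673462 held 5 H3K4me3 peaks, the most of any cluster, and all 7 ATAC-seq peaks overlapped them. Their fold enrichments were low, from 2.99 to 5.64, against 39.9 at the Etl4 start. The clusters of 6 and of 5 peaks on either side held no H3K4me3 peak.

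Clusters held H3K4me3 more often than single distal peaks. An H3K4me3 peak lay in 167 of 367 clusters (45.5%, interval 40.5 to 50.6) and in 8.33% of stretches of any size. Since a longer stretch has more room for a peak, the overlap was also counted per ATAC-seq peak. By that count 469 of 1993 cluster peaks (23.5%, 21.7 to 25.4) and 3268 of 64641 single peaks (5.06%, 4.89 to 5.23) overlapped H3K4me3, a difference of 18.5 points (16.7 to 20.4). In clusters 1 H3K4me3 peak can overlap several neighbouring ATAC-seq peaks, and all clusters together held 267 H3K4me3 peaks. Cluster peaks are thus not independent, and that interval is too narrow. When the H3K4me3 summit had to lie in the ATAC-seq peak, which limits such repeated counting, the shares were 5.47% and 3.68%. The difference was then 1.79 points (0.862 to 2.88). All distal peaks together stood at 8.53%. In a window of 5 kb on the midpoint, H3K4me3 was found for 45.0% of clusters and 6.67% of single peaks, a difference of 38.3 points (33.3 to 43.4). Per chromosome, the share of cluster peaks exceeded that of single peaks on 19 of 19 autosomes, from 12.7% against 3.43% on chromosome 14 to 44.7% against 6.27% on chromosome 19. Without stretches rich in repeats the shares per peak were 26.4% and 6.10%.

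The share rose along the sizes below the limit and varied little above it. Stretches of 1, 2, 3 and 4 peaks held H3K4me3 in 5.06%, 16.7%, 29.2% and 37.2% of cases. Those of 5 peaks did so in 44.1% (38.3 to 50.1), those of 6 in 51.8% (39.0 to 64.3) and those of 7 or more in 46.2% (31.6 to 61.4). Per ATAC-seq peak the shares were 11.5%, 16.9% and 19.2% for 2, 3 and 4 peaks, and 23.5%, 25.3% and 21.9% for 5, 6 and 7 or more. The intervals of the last 3 sizes overlap.

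**Figure D3:**
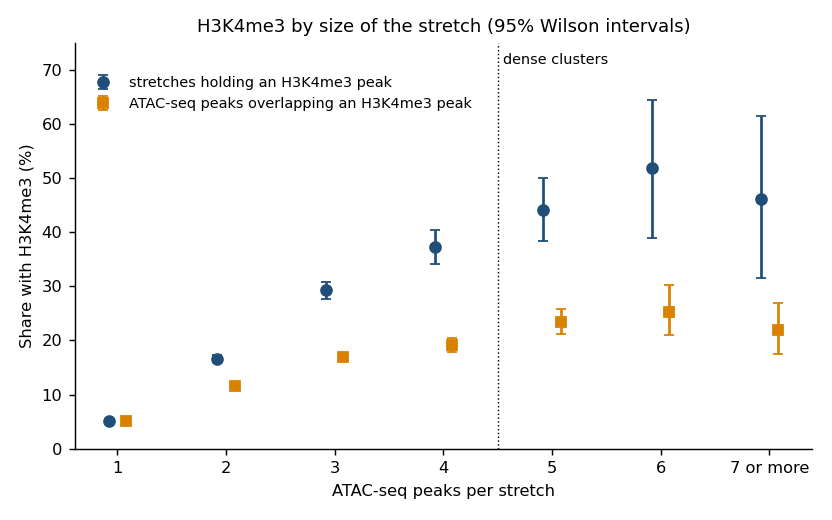
Share (%) of stretches that hold an H3K4me3 peak (circles) and of ATAC-seq peaks that overlap one (squares), against the number of ATAC-seq peaks in a stretch; bars are 95% Wilson intervals and dense clusters are right of the dotted line. Both shares start at 5.06% for single peaks, and per peak reach 23.5% at 5 peaks.

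The difference was present at each distance up to 100 kb from a transcript start. At 5 to 20 kb from a start, 24.6% of cluster peaks and 6.43% of single peaks overlapped H3K4me3. From 20 to 50 kb the shares were 23.6% and 4.57%, and from 50 to 100 kb they were 18.1% and 2.76%. Beyond 100 kb, 2 of 27 cluster peaks and 1.36% of single peaks did so, a difference of 6.05 points (0.686 to 22.0). That interval treats peaks of the same cluster as independent, so 2 peaks cannot settle the difference at this distance. Peak width gave the same direction in strata chosen after the data were seen. Among peaks under 200 bp wide, 17.0% in clusters and 0.933% of single peaks overlapped H3K4me3, and among those of 500 bp or more it was 40.9% and 18.8%.

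**Figure D4:**
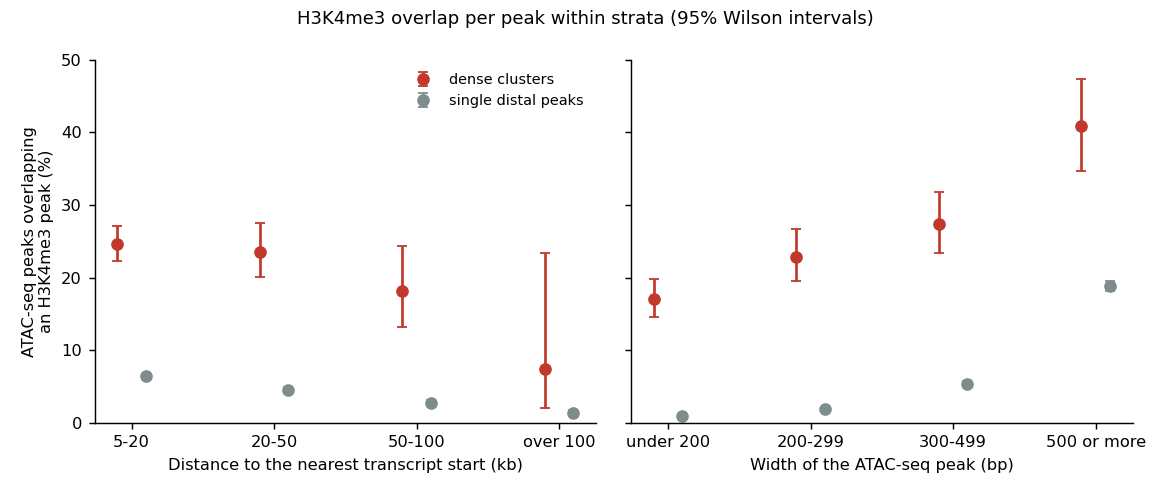
Share (%) of ATAC-seq peaks that overlap an H3K4me3 peak in dense clusters (red) and among single distal peaks (grey), by distance to the nearest transcript start in kb (left) and by peak width in bp (right), with 95% Wilson intervals. The cluster value is above the single value in all 8 strata, from 7.41% (2 of 27 peaks) against 1.36% beyond 100 kb to 40.9% against 18.8% in the widest peaks.

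The direction turned when only the widest 50% of all ATAC-seq peaks were kept before joining. That left 11 clusters, in which 3 of 56 peaks overlapped H3K4me3 against 11.9% of single peaks, a difference of -6.58 points (-10.1 to 2.67). Of these 11 clusters, 9 were rich in repeated words.

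Within clusters, H3K4me3 covered some peaks and passed over others. There were 200 clusters with no H3K4me3 peak, 99 with 1, 42 with 2, 21 with 3, 4 with 4 and 1 with 5. In 27 clusters every ATAC-seq peak overlapped H3K4me3, in 31 only 1 did, and in 4 the H3K4me3 peak lay between ATAC-seq peaks. Inner peaks overlapped H3K4me3 in 331 of 1259 cases (26.3%) and the outermost peaks in 138 of 734 (18.8%). The summit of 111 of the 267 H3K4me3 peaks fell in an ATAC-seq peak of the cluster. H3K4me3 peaks covered 15.1% of the cluster bases. Clusters with and without H3K4me3 were of like length, with median spans of 4479 and 4648.5 bp. The 200 clusters without H3K4me3 were a median of 14794 bp from the nearest such peak, and 35 of them were over 50 kb away.

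The H3K4me3 peaks in clusters were mostly weak. Their median fold enrichment over the background of the peak caller was 5.03 (4.44 to 5.45), close to the 4.77 (4.68 to 4.88) of H3K4me3 peaks at single distal peaks. All autosomal H3K4me3 peaks had a median of 8.81, and the strongest peaks at the starts of coding genes one of 30.2. Of the 267 peaks in clusters, 206 were below the autosomal median. They were wider than those at single distal peaks, with medians of 841 bp (721 to 985) and 631 bp (614 to 648).

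Some clusters carried H3K4me3 as strong as a promoter, above the median of 30.2-fold at coding starts. Those described here were picked for the strongest peaks. Other clusters also passed that median, such as those nearest to Fcgr4 (39.8-fold) and Rnase12 (39.7-fold). On chr19:12009550-12013467, 5 ATAC-seq peaks lay under 3 H3K4me3 peaks, the strongest of 61.0-fold enrichment and above 99.4% of autosomal peaks. The nearest coding gene was the olfactory receptor gene Olfr1423 at 25232 bp, which had no H3K4me3 at its start, and the nearest annotated start of any kind was 8667 bp away. Near Elf2, an ETS family factor, all 5 peaks on chr3:51357728-51361388 overlapped H3K4me3 of up to 49.6-fold. Whether these regions hold starts that the annotation lacks was not tested.

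Clusters were closer to genes than single distal peaks were. The median distance from the midpoint to the nearest start of any transcript was 14586 bp (13432 to 16390) for clusters and 19208 bp (18997 to 19413) for single peaks. To the nearest coding start it was 22423 bp (19186 to 25547) and 38125 bp (37513 to 38731). A coding start lay within 50 kb of 78.5% of clusters and 56.1% of single peaks. Few clusters were remote, with 5 over 100 kb from any start, and the 3 farthest were 151959, 144264 and 130380 bp from the nearest, the starts of Gm20586, Gm17911 and Gm7252. The first was 425489 bp from its nearest coding gene Gpm6a, a neuronal membrane glycoprotein, and 98.9% of it was repeated words. The second was 1914068 bp from its nearest coding gene Aga, a lysosomal enzyme. None of these 3 held H3K4me3. Clusters lay inside coding genes in 40.6% of cases and single peaks in 41.1%, a difference of -0.532 points with an interval from -5.45 to 4.58. Of cluster peaks, 35.8% had their midpoint in an intron, 4.87% in an exon and 59.4% between coding genes.

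The genes nearest to clusters were marked by H3K4me3 more often. Of 343 such coding genes, 295 (86.0%, 81.9 to 89.3) had a peak within 1 kb of a start, against 75.0% (74.3 to 75.8) of the 12968 genes nearest to a single peak and 70.0% of all autosomal coding genes. The difference from single peaks was 11.0 points (6.84 to 14.3). Each gene was counted once per group, however many stretches it was nearest to. Clusters were also closer to coding starts, and this comparison was not split by distance, so the part of distance was not tested. The difference was not detectable for clusters of 7 or more peaks, at 3.36 points (-12.2 to 13.6). The strongest peak at the marked genes had a median fold enrichment of 33.9 (32.3 to 35.7) for clusters and 31.2 (30.8 to 31.6) for single peaks. For 19 genes, 2 or more clusters had the gene as their nearest coding gene, inside it or outside. Besides Etl4 these included Gli2, a mediator of Hedgehog signals, Msi2, an RNA-binding protein, and Auts2. Gli2 had 2 clusters of 5 peaks without H3K4me3, while Msi2 had 2 clusters of 5 peaks, of which 1 held H3K4me3. The 4 clusters nearest to Gm21119 and the 3 nearest to each of Atg7 and Gm31371 all lay between genes and held no H3K4me3. These genes were named after their values were seen.

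Cluster windows held fewer soft-masked bases than single ones, and motifs differed in both directions. The median of soft-masked bases was 13.0% (12.5 to 14.5) in cluster windows and 20.0% (19.5 to 20.5) at single peaks. The median GC content of the 200 bp windows was 52.5% in clusters and 51.0% at single peaks, with a median of 3 and 2 CpG dinucleotides. Motifs were searched on both strands of these windows as ATGCAAAT (octamer), TGTNATGCA (the core of the OCT4-SOX2 composite site, which shares letters with the octamer), TCAAGGTCA (ESRRB), CCACACCC (KLF), TTCCNGGAA (STAT), TGANTCA (AP-1), GCCNNNGGC (TFAP2) and the CTCF consensus. The interval of the difference left out 0 for 6 of the 8 motifs. A match is a stretch of letters, not a bound site. As N is any base, TGANTCA is looser than the AP-1 site, and the AP-1 shares include such looser matches.

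The octamer, the OCT4-SOX2 core and the CTCF motif were rarer in cluster windows. The octamer was in 47 of 1993 cluster windows (2.36%), 3.88% of single windows and 3.54% of all distal windows, a difference of -1.52 points (-2.12 to -0.741). Without stretches rich in repeats that difference was -0.206 points (-0.797 to 0.587). The OCT4-SOX2 core was in 0.452% of cluster windows, 0.871% of single windows and 0.831% of all, a difference of -0.419 points (-0.646 to -0.00912) whose interval took in 0 in 4 of 13 alternatives. The motif of CTCF, the insulator protein, was in 2.51%, 3.68% and 3.45%, a difference of -1.17 points (-1.79 to -0.371) that was -0.739 points (-1.52 to 0.311) at over 10 kb from a start.

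Motifs of 3 other families were more frequent. That of ESRRB was in 1.15% of cluster windows, 0.558% of single windows and 0.66% of all, a difference of 0.596 points (0.207 to 1.17). For clusters of 7 or more peaks it was -0.222 points (-0.506 to 1.32). KLF motifs, bound by Klf4 and Klf5, were in 5.47%, 4.40% and 4.52%, a difference of 1.07 points (0.137 to 2.16). This difference was 0.0692 points (-0.590 to 0.906) in windows of 100 bp and -1.65 points (-2.75 to 0.091) with a joining gap of 1000 bp. TFAP2 motifs were in 8.68%, 7.18% and 7.31%, a difference of 1.50 points (0.325 to 2.83). Without stretches over 50% soft-masked that was 0.614 points (-0.564 to 1.98), and in windows of 100 bp 0.281 points (-0.521 to 1.26). For STAT, the site of the LIF effector STAT3, the shares were 0.953%, 0.657% and 0.713%, with a difference of 0.296 points (-0.0525 to 0.830). AP-1 motifs were in 9.43%, 10.6% and 10.3%, with a difference of -1.18 points (-2.41 to 0.202), and without stretches rich in repeats it was -2.42 points (-3.77 to -0.910). By cluster, the counts ran from 9 of 367 with the OCT4-SOX2 core to 145 with AP-1.

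**Figure D5:**
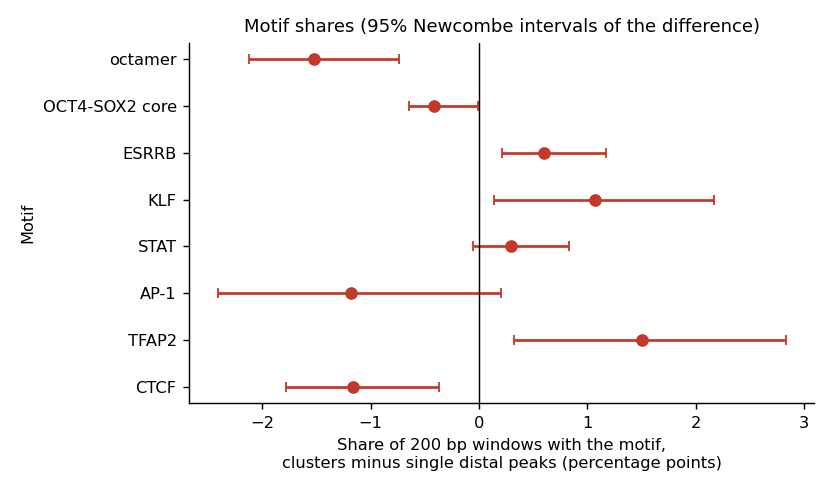
Difference in the share of 200 bp windows with each motif, dense clusters minus single distal peaks, in percentage points, with 95% Newcombe intervals and a line at 0. The octamer at -1.52 and TFAP2 at 1.50 lie farthest from 0 on each side, and the intervals of STAT and AP-1 cross 0.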

How the data were processed

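The authors aligned the ATAC-seq reads with Bowtie 1.1.2 and called peaks with MACS2 2.1.1.20160309, using a lenient cut-off on the p-value. They kept pooled peaks found in both replicates with bedtools 2.27.1 (their processing notes also name SAMtools). The deposited ATAC-seq list gives positions only, so weak calls among the single and cluster peaks could not be counted. The H3K4me3 list was made by the authors with the ENCODE pipeline for histone marks, and its deposited columns hold a fold enrichment (a ratio over background), −log10 values of p and q, the summit and a display score, which was not used. Neither list holds read counts or separate replicates.

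Positions were read as mm10, with GENCODE M21 genes and the GRCm38 sequence, whose chromosome lengths hold all peaks. The clusters, gene lists, motifs and comparisons were chosen with earlier results of these data known. An overlap was at least 1 bp. The nearest coding gene was the one with the transcript start closest to the midpoint of a stretch. Shares are given with Wilson intervals, differences of shares with Newcombe intervals, and medians with order-statistic intervals, all at 95%. Repeated words were 31-mers found more than once on the 21 chromosomes, either strand. Clusters were named if among the 10 with the most ATAC-seq peaks (ties by longer span), the 3 with the most H3K4me3 peaks, those with the 3 strongest H3K4me3 peaks, the 3 farthest from any start, or if their nearest coding gene was in a gene list. Among these, 1 cluster is not reported here. Joining was checked against bedtools 2.31.1 and on simulated data. Computing was done with pandas 2.3.3, numpy 2.4.6, numba 0.67.0 and matplotlib 3.10.9 under Python 3.11.15. The alternatives changed the joining gap, the number of peaks, the distance and kind of start, peak width, repeats, H3K4me3 strength, and the motif window.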

Additional observations from a re-analysis of the deposited data

Results flagged for a closer look

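The sex chromosomes were outside the comparisons above and also held dense clusters. By the same rule chromosome X had 10 clusters among 3529 distal ATAC-seq peaks, the largest of 7 peaks, and 5 of them held an H3K4me3 peak. Chromosome Y had 7 clusters among 424 distal peaks, the largest of 10 peaks, and 1 held an H3K4me3 peak. They are listed because these chromosomes were not used elsewhere, and whether the numbers are unusual was not tested. No explanation was tested.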

How the results depend on the processing

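No paired analysis was possible because each list pools both replicates, and no replicate could be left out for the same reason. The number of clusters, 367, was set by the joining rule. It was 106 with a joining gap of 1000 bp, 1912 with 5000 bp, 1251 for 4 or more peaks, 39 for 7 or more, 239 at over 10 kb from a start, 558 with starts of coding transcripts only and 11 with the widest 50% of ATAC-seq peaks. The share of clusters holding H3K4me3 was 39.6% for 4 or more peaks, 52.2% with coding starts and 9.09% with the widest peaks. The median distance to a start was 16946 bp with a gap of 5000 bp, 21708 bp at over 10 kb, 24685 bp with coding starts and 33565 bp with the widest peaks, and the share inside genes was 18.2% with the widest peaks. The alternative that counted each distinct interval once had to return the main values, as 0 ATAC-seq peaks had identical positions. It is included in the counts of alternatives here. The difference in H3K4me3 overlap per ATAC-seq peak kept its direction and its side of 0 in 23 of 24 alternatives. Strata of distance and width are among them and are parts of the main counts. The stratum beyond 100 kb rests on 2 of 27 cluster peaks and cannot settle the difference there. The difference was 1.79 points when the H3K4me3 summit had to lie in the ATAC-seq peak, and turned to -6.58 points with the widest peaks. The difference in nearest genes marked by H3K4me3 kept its direction in all 15 alternatives, but its interval took in 0 in 3, at 8.44 points with a gap of 1000 bp, 3.36 points for 7 or more peaks and 1.26 points with the widest peaks. Each of those 3 leaves fewer clusters.

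The number of motifs that differed was 6. It was 2 with the widest peaks, 4 with a gap of 1000 bp, for 7 or more peaks and at over 10 kb, 5 without soft-masked stretches and in windows of 100 bp, 7 with coding starts, and 8 with a gap of 5000 bp and for 4 or more peaks. The motifs counted were not always the same. For 7 or more peaks they were STAT, AP-1, TFAP2 and CTCF, and with the widest peaks AP-1 and TFAP2. KLF was -1.65 points (-2.75 to 0.091) with a gap of 1000 bp and -2.21 (-3.69 to 5.46) with the widest peaks. STAT was -0.745 points (-0.837 to 5.67) with the widest peaks, and ESRRB -0.222 (-0.506 to 1.32) for 7 or more peaks. The sign turned in these cases, but each interval took in 0. KLF also lost its difference in 3 further alternatives of 13, and ESRRB in 2. AP-1 motifs were lower in clusters in 9 of 13 alternatives, and the octamer and the OCT4-SOX2 core each lost their difference in 4 of 13. CTCF lost it in 2 of 13, and so did TFAP2. With the widest peaks TFAP2 was 18.4 points (8.62 to 31.3), from 56 peaks in 11 clusters, 9 of them rich in repeated words. Leaving out stretches rich in repeated words, the midpoint of the ATAC-seq peak, the strata of width and the disjoint gene groups were chosen after seeing the data. The cause of these changes was not tested. Depth is unknown and the ATAC-seq list has no strength, so weak peaks could be set apart by width only.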
